A study of Arabidopsis thaliana with 4 samples.

Results

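The 477 regions described here were stretches of the Arabidopsis thaliana chromosome arms that already carried cytosine methylation in the CHH context in the wild type and carried more of it in ndx1-4 seedlings, with no change listed in the CG or CHG context at the same place. H stands for A, C or T. They were chosen from 7023 differentially methylated regions, of which 3213 were in the CHH context and 3177 of those lay on the 5 nuclear chromosomes. A region was taken when its CHH level was higher in ndx1-4 than in Col-0, its Col-0 level was at least 0.06, no CG or CHG region overlapped it by a single base, and its midpoint lay outside fixed pericentromeric intervals. The intervals ran from 12.9 to 16.9 Mb on chromosome 1, 2 to 6.6 Mb on chromosome 2, 11.2 to 16 Mb on chromosome 3, 2.4 to 5.8 Mb on chromosome 4 and 10.1 to 14.4 Mb on chromosome 5. Genomic DNA of whole seedlings aged 14 days was treated with bisulfite, which converts cytosine but not methylated cytosine so that it is read as thymine, and sequenced. The mutant was ndx1-4, a T-DNA insertion allele of NODULIN HOMEOBOX (NDX), and the wild type was its background accession Col-0, with 2 libraries each and no treatment named. The mutant is a single insertion allele, and a whole seedling mixes many cell types.

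The measured level of a region is the methylated fraction of its cytosines, from 0 to 1, given as 1 mean per genotype with the libraries combined. The levels of single libraries and the read coverage are not used here, so neither the spread between replicates nor the depth behind a level is known, and no difference below was tested. The lists hold only regions that passed the authors' thresholds, and the number of places they tested is not known, so no share of tested places can be given. The difference between genotypes chose the regions, and their levels are therefore a description.

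In plants, CHH methylation has no mirror-image site on the opposite strand and has to be written anew after each round of DNA replication. DRM2 writes it where RNA-directed DNA methylation brings it, a pathway in which RNA polymerase IV transcripts are made into small RNAs and RNA polymerase V transcripts receive them. This pathway is known for short transposons and transposon edges near genes on the chromosome arms. CMT2 writes CHH methylation mainly inside long transposons of the pericentromeric heterochromatin, and DNA glycosylases such as ROS1 remove methylation. NDX is a plant homeodomain protein known to bind the 3′ end of FLC, the flowering repressor, where it represses antisense transcription.

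The sequences below show what such regions look like. The set with the largest difference holds 1 region per chromosome, taken among regions of at most 300 bp outside untranslated exons. Each is the plus strand of the RefSeq copy of TAIR10.1, and capitals mark each C in the CHH context on this strand and each G opposite a CHH cytosine of the other strand.
Chromosome 1, chr1:170-402: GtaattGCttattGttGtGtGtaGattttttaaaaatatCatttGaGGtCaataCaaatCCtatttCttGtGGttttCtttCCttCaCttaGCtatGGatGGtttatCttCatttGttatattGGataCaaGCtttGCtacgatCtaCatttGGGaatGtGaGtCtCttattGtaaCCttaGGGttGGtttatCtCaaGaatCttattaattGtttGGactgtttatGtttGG
Chromosome 2, chr2:472223-472475: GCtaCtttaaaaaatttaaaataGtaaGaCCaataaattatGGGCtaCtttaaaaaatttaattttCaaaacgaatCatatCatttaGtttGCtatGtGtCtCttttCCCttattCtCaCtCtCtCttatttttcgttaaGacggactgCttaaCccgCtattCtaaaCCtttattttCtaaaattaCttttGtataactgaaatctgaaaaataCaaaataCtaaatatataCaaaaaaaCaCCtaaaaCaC
Chromosome 3, chr3:7785808-7786023: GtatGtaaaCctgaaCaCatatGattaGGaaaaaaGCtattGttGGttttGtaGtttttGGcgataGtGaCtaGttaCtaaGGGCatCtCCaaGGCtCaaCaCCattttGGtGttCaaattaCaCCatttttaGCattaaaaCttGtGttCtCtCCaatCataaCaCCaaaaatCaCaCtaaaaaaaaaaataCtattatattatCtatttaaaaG
Chromosome 4, chr4:9309317-9309563: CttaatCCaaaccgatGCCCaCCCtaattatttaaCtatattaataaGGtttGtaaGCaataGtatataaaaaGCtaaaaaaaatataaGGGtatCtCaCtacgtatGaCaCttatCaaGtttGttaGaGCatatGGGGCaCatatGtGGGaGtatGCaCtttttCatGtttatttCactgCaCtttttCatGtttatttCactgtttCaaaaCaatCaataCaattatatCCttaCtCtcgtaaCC
Chromosome 5, chr5:17076229-17076393: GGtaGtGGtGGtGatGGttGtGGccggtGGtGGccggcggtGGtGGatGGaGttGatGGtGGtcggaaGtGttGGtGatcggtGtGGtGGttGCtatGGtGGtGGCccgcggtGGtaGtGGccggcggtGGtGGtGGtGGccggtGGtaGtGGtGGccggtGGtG

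The chromosome 1 region lay at the very end of the assembled chromosome, 3228 bp before NAC001, the outermost protein-coding gene of that arm, and its CHH level was 0.245 in ndx1-4 and 0.0843 in Col-0. The chromosome 2 region was in the 1 kb upstream of GAD3, a glutamate decarboxylase, with levels of 0.313 in ndx1-4 and 0.144 in Col-0. The chromosome 3 region was 1338 bp from the nearest protein-coding gene, with 0.438 in ndx1-4 and 0.245 in Col-0. These 3 regions and the chromosome 4 region were A+T-rich, between 25.7% and 31.3% GC. The chromosome 5 region was unlike them in sequence. It was 66.1% GC, the highest of the 477. Of its 71 CHH cytosines in the reference, 69 were on the minus strand, opposite the G bases of the printed strand. The authors counted 60 cytosines in it, so its level does not rest on all 71.

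A second set of sequences shows the repeats among the regions: the region with the most further copies in the genome, the region with the highest Col-0 level, a pair from the family of 9 alike regions described below, and the longest inverted repeat. The family and the inverted repeat were picked after their values were seen.
Most further copies, chr2:10931885-10931938: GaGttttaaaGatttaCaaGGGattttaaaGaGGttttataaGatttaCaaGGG
Highest Col-0 level, chr5:17347139-17347232: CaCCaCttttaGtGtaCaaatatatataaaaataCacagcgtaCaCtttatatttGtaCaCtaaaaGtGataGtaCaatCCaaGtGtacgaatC
Family of 9, beside MEA, chr1:549998-550125: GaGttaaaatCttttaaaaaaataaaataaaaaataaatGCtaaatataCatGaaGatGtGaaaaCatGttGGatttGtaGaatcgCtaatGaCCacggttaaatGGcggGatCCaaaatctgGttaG
Family of 9, shortest, chr1:1289029-1289113: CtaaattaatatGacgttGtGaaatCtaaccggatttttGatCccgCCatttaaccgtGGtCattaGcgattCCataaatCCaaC
Inverted repeat, chr2:9566904-9567139: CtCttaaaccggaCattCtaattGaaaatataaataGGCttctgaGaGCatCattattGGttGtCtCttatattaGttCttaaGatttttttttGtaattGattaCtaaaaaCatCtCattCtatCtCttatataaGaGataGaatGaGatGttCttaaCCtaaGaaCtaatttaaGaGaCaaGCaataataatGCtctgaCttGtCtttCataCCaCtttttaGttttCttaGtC

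The CHH level had a median of 0.215 in ndx1-4 and 0.116 in Col-0. In ndx1-4 it ran from 0.119 over quartiles of 0.175 and 0.286 up to 0.672, and in Col-0 from 0.0601 over quartiles of 0.0840 and 0.162 up to 0.546. The difference, ndx1-4 minus Col-0, had a median of 0.10 and lay between 0.0520 and 0.254, with its middle part between 0.0854 and 0.116. The ratio of ndx1-4 to Col-0 had a median of 1.84. It was at least 2 in 145 regions (30.4%), at least 3 in 4 regions, and under 1.5 in 55 regions. A difference of at least 0.1 was reached by 241 regions (50.5%) and one of at least 0.15 by 22.

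**Figure D1:**
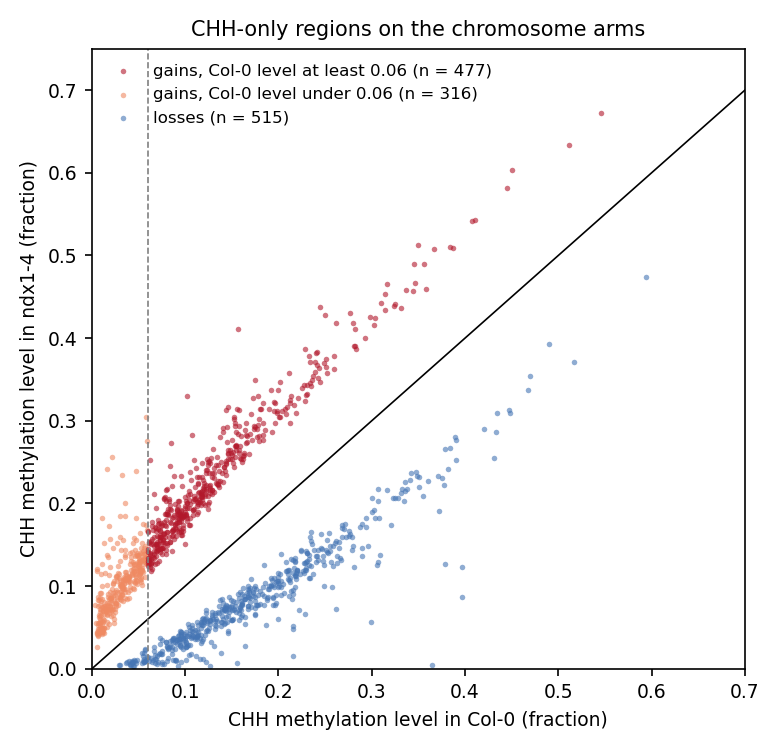
Each point is 1 CHH-only region of the arms, with its CHH methylation level (a fraction) in Col-0 on the x axis and in ndx1-4 on the y axis. The 477 gains from at least 0.06 (dark red) run in a band above the line with a median difference of 0.10, beside 316 gains from lower levels (orange) and 515 losses (blue); the solid line marks equal levels and the dashed line the Col-0 minimum of 0.06.

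The regions were short, with a median length of 139 bp and a range from 51 to 488 bp, and 391 of them (82.0%) were under 200 bp. The authors counted a median of 36 cytosines per region, between 7 and 129. The plot of levels in ndx1-4 against Col-0 sets them beside 2 other groups of CHH-only regions on the arms. The 316 gains from a Col-0 level under 0.06 had median levels of 0.103 in ndx1-4 and 0.0306 in Col-0, a median difference of 0.0679 and a median length of 158 bp. The 515 losses had median levels of 0.0748 in ndx1-4 and 0.161 in Col-0, a median difference of -0.0834 and a median length of 124 bp.

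The limit of 0.06 falls in a continuous range of levels. Just inside it were regions at chr1:30415572-30415718, in an intron of the F-box gene AT1G80960, with 0.130 in ndx1-4 and 0.0601 in Col-0, at chr5:26116895-26116995, with 0.127 in ndx1-4 and 0.0601 in Col-0, and at chr1:12742758-12742912, with 0.134 in ndx1-4 and 0.0602 in Col-0. Just outside it were regions at chr4:6437520-6437666, with 0.142 in ndx1-4 and 0.0593 in Col-0, at chr4:6028045-6028145, with 0.127 in ndx1-4 and 0.0592 in Col-0, and at chr4:10532527-10532771, with 0.168 in ndx1-4 and 0.0589 in Col-0. Of the 477 regions, 52 had a Col-0 level under 0.07.

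The regions with the higher starting level gained more in absolute terms and less in relative terms. The 78 regions at a Col-0 level of 0.2 or more had a median of 0.380 in ndx1-4 and 0.251 in Col-0, a difference of 0.119 and a ratio of 1.45. The 211 regions between 0.1 and 0.2 had 0.244 in ndx1-4 and 0.133 in Col-0, a difference of 0.104 and a ratio of 1.76. The 188 regions between 0.06 and 0.1 had 0.167 in ndx1-4 and 0.0785 in Col-0, a difference of 0.0854 and a ratio of 2.10. The authors' thresholds are not known, and the size of the difference may also have decided which regions were listed. This order is therefore a description of the list.

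The 6 regions with the largest differences were spread over 3 chromosomes. The largest was the GC-rich chromosome 5 region printed above, at 0.411 in ndx1-4 and 0.157 in Col-0. It covered coding exons of AT5G42635, which the annotation names a glycine-rich protein, and lay in the 1 kb upstream of ATS (AT5G42630, also KANADI4), a transcription factor of ovule integument development. Next came chr1:10013352-10013589, with 0.331 in ndx1-4 and 0.102 in Col-0, in an untranslated exon of GRX480 (AT1G28480), a glutaredoxin that acts with TGA transcription factors. The chromosome 3 region printed above followed. A region upstream of AT5G54040, a C1 domain protein gene, at chr5:21931446-21931672 had 0.252 in ndx1-4 and 0.0629 in Col-0, and its ratio of 4.01 was the highest of the 477. At chr5:3714944-3715163, upstream of both AT5G11560 and AT5G11565, the level was 0.273 in ndx1-4 and 0.0844 in Col-0, a ratio of 3.23. The nearer gene was AT5G11565, 31 bp away, which the annotation names a reverse transcriptase zinc-binding protein. The sixth, at chr3:1057767-1058027 and 2570 bp from the transcription factor gene NAC046, had 0.428 in ndx1-4 and 0.250 in Col-0.

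At the other end stood regions that were heavily methylated in both genotypes. The highest Col-0 level was at chr5:17347139-17347232, the 94 bp sequence printed above, with 0.672 in ndx1-4 and 0.546 in Col-0. Its ratio of 1.23 was the smallest of the 477. It lay in the 1 kb upstream of both AT5G43200, a RING-finger gene, and AT5G43210. The region at chr3:5840061-5840138, upstream of AT3G17120, had 0.634 in ndx1-4 and 0.511 in Col-0. The region at chr1:3780832-3781063, in an intron of the F-box gene AT1G11270, had 0.604 in ndx1-4 and 0.450 in Col-0. The region at chr1:3933189-3933281 had 0.581 in ndx1-4 and 0.445 in Col-0, and the region at chr5:15101598-15101692, upstream of AT5G37920, had 0.542 in ndx1-4 and 0.410 in Col-0. Levels of 0.5 or more were found in 10 regions in ndx1-4, and levels of 0.4 or more in 6 regions in Col-0.

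The levels resting on the most cytosines were moderate. The longest region, 488 bp with 129 cytosines at chr5:16715890-16716377, overlapped the non-coding RNA gene AT5G06195 and had 0.151 in ndx1-4 and 0.0689 in Col-0. The region at chr3:9346392-9346713, with 89 cytosines across the start of the leucine-rich repeat gene AT3G25670, had 0.203 in ndx1-4 and 0.0825 in Col-0. The region at chr5:21145373-21145696, with 88 cytosines and 4496 bp from the nearest protein-coding gene, had 0.127 in ndx1-4 and 0.0694 in Col-0. The region at chr5:17944787-17945114, with 87 cytosines, lay in the pseudogene AT5G44555, upstream of VPS2.2 (AT5G44560), an endosomal sorting gene, and had 0.221 in ndx1-4 and 0.121 in Col-0.

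Most of the regions lay outside genes. Of the 477, 66 (13.8%, Wilson 95% interval 11 to 17.2) overlapped a protein-coding gene, while such genes cover 62.9% of the bases of the arms. The 1 kb upstream of a protein-coding gene was overlapped by 194 regions (40.7%, 36.4 to 45.1), against 24.5% of arm bases, and the 1 kb downstream by 146 (30.6%), against 24.7% of arm bases. A region can overlap several of these, and a region of more than 1 bp overlaps a feature more readily than a single base does. No protein-coding gene, 1 kb flank of such a gene or pseudogene was touched by 149 regions (31.2%), against 11.9% of arm bases. The median gap to the nearest protein-coding gene was 602 bp. Intervals of shares cover the counting of regions only.

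Among the 316 gains from a lower level, 21.5% overlapped a protein-coding gene and 43.0% the 1 kb upstream, and among the 515 losses 20.4% overlapped a protein-coding gene and 23.1% the 1 kb upstream. RefSeq pseudogene records, which include many transposon genes, were overlapped by 22 regions (4.61%, 3.07 to 6.88), against 3.28% of arm bases. They were overlapped by 3.48% of the gains from a lower level and by 18.1% of the losses. Midpoints within 1 kb upstream of the nearest gene start were found for 176 regions (36.9%, 32.7 to 41.3), for 40.8% of the gains from a lower level and for 20.8% of the losses. These differences between groups were not tested.

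**Figure D2:**
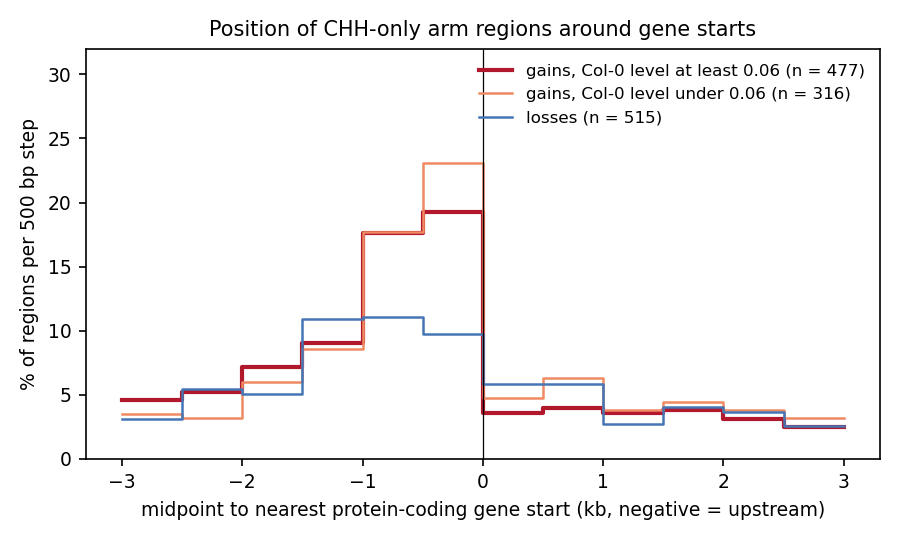
The x axis gives the distance of a region's midpoint from the start of the nearest protein-coding gene in kb, with negative values upstream, and the y axis the percentage of regions in each 500 bp step, for the gains from a Col-0 level of at least 0.06 (dark red), the gains from lower levels (orange) and the losses (blue). For the dark red line, 19.3% of regions lie in the last 500 bp before the gene start and 3.56% in the first 500 bp after it.

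Midpoints were more frequent before gene starts than after them, as the plot of midpoints around gene starts shows. The step from 1000 to 500 bp upstream held 84 regions (17.6%) and the last 500 bp upstream held 92 (19.3%). The first 500 bp after the start held 17 regions (3.56%) and the next 500 bp held 19 (3.98%). When each region was given a single class in a fixed order, 24 were in coding exons, 23 in untranslated exons, 19 in introns, 21 in pseudogenes, 14 in non-coding RNA genes, 157 (32.9%) in the 1 kb upstream, 76 in the 1 kb downstream and 143 (30.0%) further from genes. The size of the difference was much alike across these classes, with class medians between 0.0945 and 0.107.

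In all, 217 protein-coding genes had 1 of the regions in the 1 kb upstream, and 22 regions were upstream of more than 1 gene. A gene with a symbol beyond its locus tag was downstream of 84 regions. The largest difference among these was upstream of ATS, given above, and the next 7 follow. Upstream of ATG8F (AT4G16520), a ubiquitin-like autophagy protein, the chromosome 4 region printed above had 0.283 in ndx1-4 and 0.107 in Col-0. Upstream of PSRP6 (AT5G17870), a plastid ribosomal protein, chr5:5907308-5907488 had 0.349 in ndx1-4 and 0.175 in Col-0 and lay 100 bp from the gene. The GAD3 (AT2G02000) region was given above.

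Upstream of FC1 (AT5G26030), a ferrochelatase of heme synthesis, chr5:9095369-9095534 had 0.431 in ndx1-4 and 0.277 in Col-0. Upstream of DEG15 (AT1G28320), a peroxisomal processing protease, chr1:9925103-9925337 had 0.304 in ndx1-4 and 0.152 in Col-0. At AGG3 (AT5G20635), a G protein gamma subunit, chr5:6982149-6982343 reached into the first untranslated bases of the gene and had 0.298 in ndx1-4 and 0.153 in Col-0. Upstream of ATUBC2-1 (AT1G45050), a ubiquitin-conjugating enzyme, chr1:17030271-17030457 lay in the pseudogene AT1G45035 and had 0.233 in ndx1-4 and 0.0953 in Col-0. RNA was not measured in these libraries, so nothing is known here of the transcripts of these genes.

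Coding exons of a gene with a symbol were overlapped by 3 regions. LURE1.2 (AT5G43510), which encodes a pollen tube attractant peptide, held the whole of chr5:17474276-17474446 in its coding exons, 171 bp, with 0.288 in ndx1-4 and 0.185 in Col-0. In DIN2 (AT3G60140), a dark-inducible beta-glucosidase, 157 bp of chr3:22218766-22218974 were coding, with 0.206 in ndx1-4 and 0.0823 in Col-0. In ATSYP24 (AT1G32270), which the annotation names a syntaxin, only 23 bp of chr1:11644450-11644604 were coding, with 0.418 in ndx1-4 and 0.280 in Col-0.

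Of 27444 nuclear protein-coding genes, 273 (0.995%) had 1 of the regions inside them or in the 1 kb upstream. Of 50 genes on 5 lists, 0 had one, which at that share over all genes is no result about the lists. The lists were RNA-directed DNA methylation (20 genes), maintenance of DNA and histone H3 lysine 9 methylation (10), DNA demethylation (4), NDX and its partners (8) and genes known to be controlled by methylation near them (8). Listed regions of other kinds lay in or up to 1 kb upstream of 6 of the 50 genes, DRD1, SUVH2, SUVH9, HEN1, NDX and MEA. The share of all genes with such a region was not counted, so the 6 are no result about the lists either. Of the 477, the nearest region was 215 kb from NDX itself and 535 kb from FLC. Places that are not listed may still have changed below the authors' thresholds.

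A region came within 2 kb of 3 listed genes, which were singled out after their positions were seen. At MEA (AT1G02580), an imprinted Polycomb gene known to be followed by subtelomeric repeats, the region printed above began 795 bp downstream of the gene and had 0.218 in ndx1-4 and 0.123 in Col-0. SDC (AT2G17690) is an F-box gene whose promoter repeats are a well-known target of RNA-directed DNA methylation. Upstream of it, chr2:7680634-7680973 ended 1188 bp before the gene and had 0.178 in ndx1-4 and 0.0647 in Col-0 over 82 cytosines. This region was nearer to AT2G17680, 255 bp away, and lay in the 1 kb downstream of a gene, not in the 1 kb upstream of SDC. Downstream of DMS3 (AT3G49250), a chromatin protein that RNA polymerase V needs, chr3:18254863-18254966 was 993 bp away, in a coding exon of AT3G49230, and had 0.168 in ndx1-4 and 0.0868 in Col-0.

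Many of the regions were repeated sequence. A further copy elsewhere in the genome, taken as an alignment of at least 80% identity over at least 80% of the region, was found for 251 regions (52.6%, 48.1 to 57.1). At least 10 further copies were found for 113 (23.7%). These shares were not computed for other arm sequence of like length, so they cannot be read as an enrichment. A further copy was found for 26.3% (21.7 to 31.4) of the gains from a lower level and for 64.5% (60.2 to 68.5) of the losses, and at least 10 copies for 4.75% of the gains from a lower level and 21.6% of the losses. Some regions are copies of each other and so are not independent, and the intervals cannot serve to compare the 3 groups. The difference between the groups was not tested. The RefSeq annotation used here has no transposon families, so the copies are given without a family name.

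**Figure D3:**
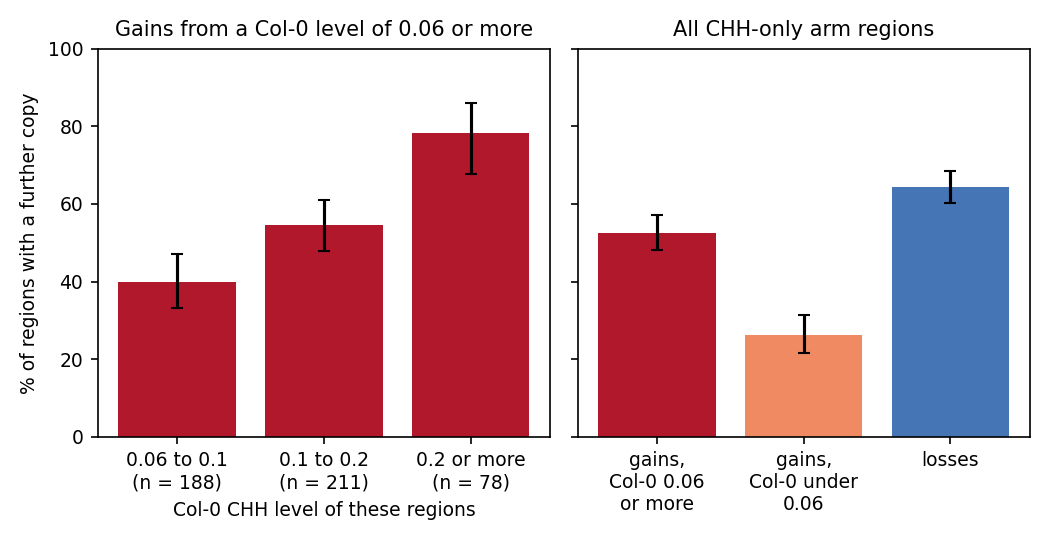
The bars give the percentage of regions with at least 1 further copy in the genome, with 95% Wilson intervals that cover the counting of regions only. On the left, the 477 gains from a Col-0 level of at least 0.06 are split by that level, and the share is 39.9%, 54.5% and 78.2% from the lowest to the highest class. On the right, the same share is 52.6% for all 477, 26.3% for gains from lower levels and 64.5% for losses.

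The share with a further copy was higher in classes with a higher Col-0 level, a difference that was not tested. It was 39.9% (33.2 to 47.0) between 0.06 and 0.1, 54.5% (47.8 to 61.1) between 0.1 and 0.2, and 78.2% (67.8 to 85.9) from 0.2 up, where the median region had 14.5 further copies. The median lengths of these classes were 146, 144 and 115.5 bp in the same order, and the part of length in the shares was not tested. The 251 regions with a copy had medians of 0.232 in ndx1-4 and 0.126 in Col-0, a difference of 0.102 and a length of 124 bp. The 226 without a copy had 0.202 in ndx1-4 and 0.0998 in Col-0, a difference of 0.0962 and a length of 159 bp. The share in protein-coding genes was 30 regions (16%, 11.4 to 21.9), 31 (14.7%, 10.5 to 20.1) and 5 (6.41%, 2.77 to 14.1) in the 3 classes from low to high. The overlap of these intervals is not a test, and the difference between the classes was not tested. How reads that match several copies were treated is not given in the sources used here, and its part in the levels of repeated regions was not tested.

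Some of the copies lay in a listed CHH region, and the share of the genome in such regions was not computed. The 251 regions had 7242 further copies, of which 2535 (35.0%) lay in the pericentromeric intervals, and 20 regions with 100 or more copies gave 54.8% of them. Of the copies, 331 lay in a CHH region that was higher in ndx1-4 and 193 in one that was lower. On the arms the count was 263 higher and 88 lower, and in the pericentromeric intervals 68 higher and 105 lower. At least 1 higher copy was found for 93 regions, at least 1 lower copy for 50, and both kinds for 26. Regions that are copies of each other count each other as higher by the way they were chosen, and several regions share the same copies, so these counts are not independent. For the gains from a lower level, 35 of 697 copies lay in a higher region and 8 in a lower one. For the losses, 100 of 5511 lay in a higher region and 164 in a lower one. On the arms the losses had 69 higher and 84 lower, and in the pericentromeric intervals 31 higher and 80 lower.

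The 54 bp region at chr2:10931885-10931938, upstream of AT2G25670, had 856 further copies and levels of 0.304 in ndx1-4 and 0.202 in Col-0. The next in copies, both singled out after their values were seen, were chr5:17406587-17406693 with 329 copies, at 0.261 in ndx1-4 and 0.163 in Col-0, and chr1:3826424-3826530 with 294 copies, at 0.322 in ndx1-4 and 0.213 in Col-0. An inverted repeat inside the region itself, with an alignment of at least 25 bp to its own other strand, was found in 4 regions. The longest such alignment was 176 bp in a region of 236 bp, so its length takes in both arms of the repeat. That region, chr2:9566904-9567139, had 0.250 in ndx1-4 and 0.124 in Col-0, and no further copy.

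Some regions were copies of each other. By shared copies, 86 regions fell into 30 families, 18 of which had 2 regions. The largest family had 9 regions and was singled out after it was seen. Its members were on chromosomes 1, 2 and 5, and all 9 lay between 0.550 and 1.29 Mb from a chromosome end. The shortest of them, 85 bp at chr1:1289029-1289113 and printed above, aligned to each of the other 8 with between 85.9% and 97.6% identity, and to the region beside MEA with 94.0% over 84 bp, in the reverse orientation.

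Across this family the CHH level was between 0.186 and 0.302 in ndx1-4 and between 0.108 and 0.166 in Col-0. The largest difference, 0.149, was at chr5:25859904-25860110, with 0.302 in ndx1-4 and 0.153 in Col-0. The smallest, 0.0782, was at the shortest region, with 0.186 in ndx1-4 and 0.108 in Col-0. Each of the 9 had between 31 and 54 further copies. They share sequence and were all chosen as higher, so they are not separate measurements of a response.

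In base composition the regions were A+T-rich. Pooled over all 477, they were 31.3% GC, with 29.7% in the gains from a lower level, 35.3% in the losses and 35.9% over the arms. They held 17711 CHH cytosines in the reference, 25 per 100 bp, against 26 per 100 bp over the arms. Of these cytosines 12.6% were in CTA and 18.3% in CAA, together 30.9%, against 9.87%, 18.2% and 28.1% over the arms. CAA and CTA are known as the trinucleotides that CMT2 favours. The shares count cytosines of the reference sequence, not methylation per trinucleotide. The part of the A+T-rich composition in them was not tested. CAA or CTA made up 32% of CHH cytosines in the gains from a lower level and 26.7% in the losses. Cytosines followed by a further C made up 20.9%, against 21.8% over the arms.

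In most regions the CHH cytosines were on both strands. At least 80% of them were on a single strand in 56 regions (11.7%, 9.15 to 14.9), in 28 of the gains from a lower level (8.86%) and in 113 of the losses (21.9%). The GC-rich region upstream of ATS was among the 56, with 2 CHH cytosines on the plus strand and 69 on the minus strand. In 444 of the 477 regions the deposited number of cytosines was the same as the number of CHH cytosines in the reference.

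The regions were spread over all 5 chromosomes. Chromosome 1 had 147 regions (5.56 per Mb of arm), chromosome 2 had 76 (5.03), chromosome 3 had 82 (4.39), chromosome 4 had 69 (4.54) and chromosome 5 had 103 (4.54), against 4.87 per Mb over all arms. The median difference per chromosome lay between 0.0952 on chromosome 4 and 0.104 on chromosome 5. In steps of 1 Mb, 95 steps held at least 1 region, with a median of 4. The fullest were chromosome 3 from 16 to 17 Mb with 17 regions, 15 of which had a further copy, chromosome 5 from 17 to 18 Mb with 14, and chromosome 1 from 17 to 18 Mb, which was tied at 12 with other steps. The chromosome 3 step borders the pericentromeric interval.

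**Figure D4:**
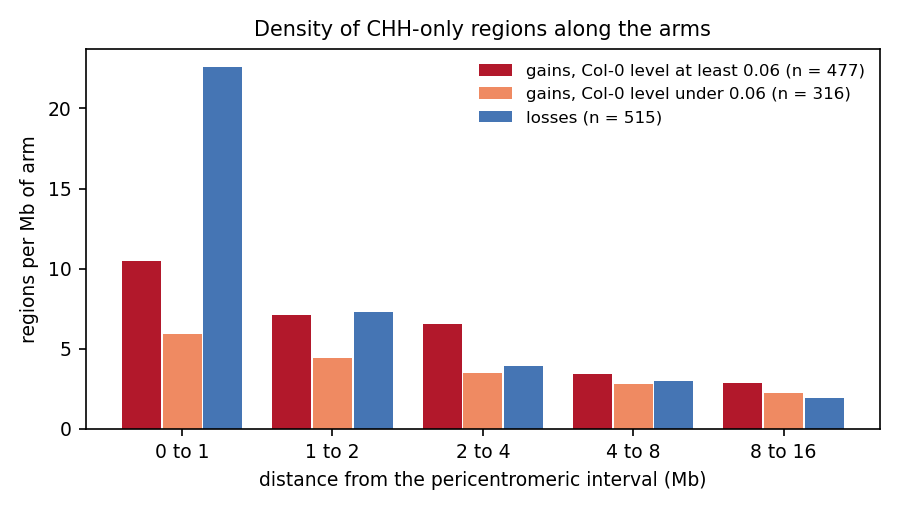
The bars give regions per Mb of arm (y axis) in steps of distance from the nearest pericentromeric interval in Mb (x axis; the steps widen outward), for gains from a Col-0 level of at least 0.06 (dark red), gains from lower levels (orange) and losses (blue). From the innermost to the outermost step the dark red bars are 10.5, 7.1, 6.52, 3.43 and 2.85 regions per Mb, and the innermost blue bar is 22.6.

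The regions were denser toward the pericentromeric intervals, as the plot of density along the arms shows. There were 10.5 per Mb in the innermost 1 Mb, 7.1 from 1 to 2 Mb, 6.52 from 2 to 4 Mb, 3.43 from 4 to 8 Mb and 2.85 from 8 to 16 Mb. The gains from a lower level had 5.9 per Mb in the innermost and 2.22 in the outermost of these steps, and the losses 22.6 and 1.95. Within 1 Mb of the intervals lay 105 of the regions (22.0%), 18.7% of the gains from a lower level and 43.9% of the losses. The median distance of the 477 was 3.0 Mb.

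Most of the regions had no other listed region within 1 kb. The rule fixed a part of this, because it left out regions overlapped by a CG or CHG region. The share for other places on the arms was not computed. Another listed region of any context lay within 1 kb of 83 of them (17.4%), of 14.6% of the gains from a lower level and of 26.6% of the losses. A CHH neighbour within 1 kb was found for 42 regions, and the nearest was higher in ndx1-4 in 27 and lower in 15. For the losses the nearest CHH neighbour was higher in 22 and lower in 81 of 103. Over all 1722 CHH regions of the arms 1087 (63.1%) were higher in ndx1-4. Since a member may have another member as its neighbour, these counts share regions.

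A CG region lay within 1 kb of 53 regions, and the nearest was higher in ndx1-4 in 23 and lower in 30. Of all CG regions of the arms 58.9% were higher. A CHG region lay within 1 kb of 17, and the nearest was higher in 5 and lower in 12, against 51.1% higher over the arms. For the losses the nearest CG neighbour was higher in 18 and lower in 22, and for the gains from a lower level in 9 and 13. The nearest CHG neighbour was higher in 8 and lower in 18 for the losses, and in 3 and 5 for the gains from a lower level. The rule left out CHH regions overlapped by a CG or CHG region, while the shares over the arms include the overlapping regions. The counts and the shares are therefore not alike, and the direction of neighbours was not tested. A further 294 CHH gains on the arms were overlapped by a CG or CHG region, 59 of them with a Col-0 level of at least 0.06, and these were left out by the rule.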

How the data were processed

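Bisulfite sequencing libraries of ndx1-4 and Col-0 seedlings (2 each) were aligned by the authors with Bismark to TAIR10, per the labels. The region caller, its thresholds and the handling of reads with several matches are not given in the sources used here. The deposited table gives, for each differentially methylated region, the methylated fraction as 1 mean per genotype, the length and the number of cytosines, which were used as deposited counts. The authors' differences and area statistics, and 3 lists made from them, were not used. Levels of single libraries were not used, so depth is unknown and no difference was tested.

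Regions were annotated with the RefSeq copy of TAIR10.1 (same nuclear coordinates, 1-based; both ends of all 477 regions fell on a CHH cytosine). Further copies were searched with blastn (BLAST+ 2.17.0, e-value 1e-05, at least 80% identity and coverage). Shares have Wilson 95% intervals. Python 3.11.15, pandas 2.3.3 and SciPy 1.17.1 were used, and the distance routine was checked on simulated intervals. The members and gene lists were chosen with earlier results of these data known. Named regions were the 6 with the largest difference, the 5 with the highest Col-0 level, the 4 with the most cytosines, the extremes of the ratio, the 3 on each side of the Col-0 minimum, up to 6 in coding exons and 8 upstream of genes with a symbol, and the 3 fullest 1 Mb steps. Sequences were the largest difference per chromosome, the most copies and the highest Col-0 level, and 1 region in an untranslated exon was passed over. Alternatives varied the rule, the windows and the copy limits.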

Additional observations from a re-analysis of the deposited data

How the results depend on the processing

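Of 58 alternatives over 8 results, 44 stayed within the interval of the reported value (for the number of regions, within 1.5 times). The median difference of 0.10 was 0.0951 with a Col-0 minimum of 0.04, 0.109 with a minimum of 0.1, 0.116 with a difference of at least 0.1, and 0.106 as a mean weighted by cytosines. The number of regions, 477, was 289 with a minimum of 0.1 and 241 with a difference of at least 0.1. The share with a further copy, 52.6%, was 60.9% with a minimum of 0.1, 36.5% at 90% identity and 70.2% when 50% of the region sufficed. The share overlapping upstream windows, 40.7% at 1 kb, was 23.1% at 500 bp and 59.1% at 2 kb. The share with another listed region within 1 kb, 17.4%, was 11.3% within 500 bp, 44.7% within 5 kb and 9.63% when CG and CHG regions were kept 500 bp away. Wider windows and looser copy limits, and stricter limits on which regions are kept, can only raise or lower the counts in the direction given. Requiring a difference of at least 0.1 removes the smaller differences, so it can only raise their median. For the other medians, the weighted mean and the copy share at a Col-0 minimum of 0.1 the cause was not tested. Libraries could not be left out in turn because only means per genotype were used. No paired analysis was possible because the levels of single libraries were not used here. Depth per region is unknown, so the precision of single levels is unknown too.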
